A study of Mus musculus with 2 samples.

Results

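The basic leucine zipper (bZIP) factors Batf, Batf2, Batf3, Jun, Junb, Jund, Fos, Fosb, Fosl1 and Fosl2 were read in bone marrow-derived macrophages (BMDMs) with and without interleukin-4 (IL-4). They were taken as every gene probe whose RefSeq accession belongs to one of these 10 genes, of 20652 gene symbols on the array, and the 10 genes were read by 11 probes. The group was selected on gene family, with the log2 differences of its genes between these same arrays already known, so those differences are given as a description. Total RNA came from BMDMs, which are macrophages grown from marrow in culture with M-CSF, of 8-week-old male mice carrying the floxed Crif1 allele (Crif1 f/f), for which no Cre driver is named, so both groups share that allele. One group was left untreated and the other was treated with IL-4, and both were harvested at 18 h. The IL-4 dose used for the arrays, and whether RNA of several mice was pooled, are not given in the sources used here. There was 1 single-colour array per condition, both on 1 slide, so no difference has a replicate check and no p-value is given. In bulk RNA, fewer cells of a type and less RNA per cell cannot be told apart.

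AP-1 is a dimer of bZIP proteins in which a JUN protein pairs with another JUN protein or with a FOS protein and binds a short palindromic DNA site. FOS proteins do not form stable dimers with themselves, and several AP-1 genes belong to the immediate early genes, which respond to growth factors and stress within minutes. BATF proteins lack a transactivation domain of the FOS type, pair with JUN proteins in place of FOS, and cooperate with the interferon regulatory factors IRF4 and IRF8 at composite DNA elements. IL-4 signals through STAT6 and drives macrophages toward the M2 state.

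All 10 genes were well above background on both arrays by the scanner software's own flag, here also called detected, at each of the 11 probes, and no spot was saturated. Batf3 was 18.8-fold higher in IL-4-treated BMDMs, Fos was 2.06-fold lower, and the other 8 genes differed by less than 2-fold. All 3 BATF factors had a log2 difference above 0. Under this scaling so did all 3 JUN factors, though Jund lay at only 0.02, while 3 of the 4 FOS factors had one below 0. The median of all genes detected on both arrays was -0.01. With median scaling 2 of the 4 FOS factors lay below 0, and with spike-in scaling 1. Intensities below are background-subtracted and not scaled between arrays. Log2 differences and folds are IL-4 over untreated after each array was centred on its own 75th percentile, a step that lowers the IL-4 side by 0.10 on the log2 scale. Of the 10 genes 1, or 10%, was at least 2-fold higher, against 2.86% of the 19743 genes detected on 1 array or both and 2.11% of the 17242 detected on both. Both totals also take in probes without a matched gene symbol, with each array identifier counted as 1 gene. Another 1 of the 10 was at least 2-fold lower, against 4.47% and 1.57% of the same genes. These genes were chosen with their values known, so nothing about the group is read from these shares.

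**Figure D1:**
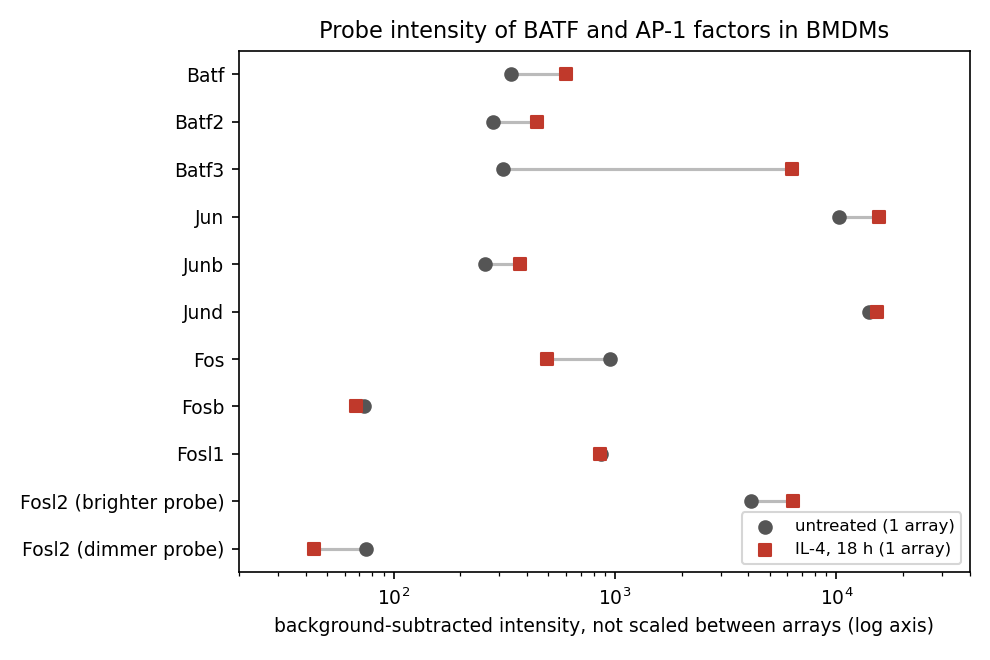
Background-subtracted intensity (log axis, not scaled between arrays) of the 11 probes for untreated cells (grey circles) and IL-4-treated cells (red squares), 1 array each. The Batf3 probe goes from 312 to 6271 and the Fos probe from 946 to 493, while Jund, Fosb and Fosl1 hardly move.

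Stretches upstream of 3 of these genes are shown because Batf3 and Fos had the largest differences and Batf lies close to Fos on chromosome 12. They are the 250 bases before the annotated start, written along the gene's strand, from RefSeq on GRCm38.p6. The table used holds the promoters of 8 of the 10 genes, without Batf2 and Fosl1. The stretches are chr1:191098164-191098413 on the plus strand for Batf3, chr12:85686470-85686719 on the plus strand for Batf and chr12:85473640-85473889 on the plus strand for Fos, and capitals mark the letters found by the search described next.
Batf3: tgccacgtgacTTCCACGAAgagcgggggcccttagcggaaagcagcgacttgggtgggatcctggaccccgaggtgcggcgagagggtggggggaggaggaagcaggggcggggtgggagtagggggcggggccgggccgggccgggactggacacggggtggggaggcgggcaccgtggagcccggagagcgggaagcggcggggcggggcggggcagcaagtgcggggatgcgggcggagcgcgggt
Batf: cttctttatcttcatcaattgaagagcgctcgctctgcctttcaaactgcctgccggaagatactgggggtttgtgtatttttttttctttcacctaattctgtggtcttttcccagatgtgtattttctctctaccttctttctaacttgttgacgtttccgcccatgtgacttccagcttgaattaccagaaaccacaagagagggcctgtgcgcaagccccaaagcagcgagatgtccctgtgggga
Fos: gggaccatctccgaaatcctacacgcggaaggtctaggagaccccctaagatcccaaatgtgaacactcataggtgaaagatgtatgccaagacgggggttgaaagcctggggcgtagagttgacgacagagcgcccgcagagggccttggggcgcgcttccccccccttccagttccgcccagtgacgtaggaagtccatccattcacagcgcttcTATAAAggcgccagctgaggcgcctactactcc

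Both strands of the 250 bases before and 50 bases after each start were searched. Batf3 was the one gene of the 8 with the STAT-type letters TTCNNNGAA, at 239 to 231 bases before its start, and 8.30% of 32851 promoters hold them. TTC and GAA with 4 bases between them, searched as the STAT6-type spacing, were found in none of the 8 and in 6.95% of all promoters. The putative STAT6 site that the paper names in the human GDF15 promoter has the form TTCNNNGAA, as the Batf3 letters do. The AP-1 site TGANTCA, held by 7.81% of all promoters, and the cyclic AMP response element TGACGTCA, held by 1.79%, were found in none of the 8 either. Composites of the AP-1 site with IRF letters were searched as the site followed by GAAA after 4 bases, preceded by TTTC at 4 bases, or directly preceded by GAAA. Each contains the AP-1 site, so their absence from these 8 windows follows from the absence of that site. They were present in 0.119%, 0.119% and 0.125% of all promoters. TATAAA was found in Fos at 33 to 28 bases before the start and in Junb at the start itself, and in 13.6% of all promoters. Guanine and cytosine made up 75.7% of the Batf3 window, 49.7% of the Batf window and 58.7% of the Fos window, where the median of all promoters was 52.7%. The Batf3 window held 34 CpG dinucleotides, the Batf window 9 and the Fos window 20, against a median of 7. The windows of genes under 2-fold held 32 for Fosl2, 25 for Fosb, 21 for Junb, 15 for Jun and 3 for Jund. A match of letters is a description of this window and not evidence that a factor binds there.

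Batf3, a factor best known for the development of cross-presenting dendritic cells, had an intensity of 312 without IL-4 and 6271 with it. The IL-4 array was the higher one by a log2 difference of 4.23, the 8th highest of the 17242 genes measured on both arrays. The probe was printed in 1 spot. The spot error, the SD of the log2 difference between spots, was 0.057 at the median of 77 probes printed in 10 spots. Their mean log2 signal over both arrays was within 1 of that of Batf3. The Batf3 signal itself lay outside that range on each array. Batf2 and Junb, nearer its untreated intensity, had spot errors of 0.074 and 0.081. A spot error does not cover the spread between cultures. The error that the software estimates for each intensity, about 10% on each array, amounts to 0.21 on this log2 difference, and Batf3 lay 20.5 such errors from 0. Under 9 other scalings, background steps and sources of the values the log2 difference of Batf3 lay between 3.87 and 4.51. The genes with the closest log2 difference among those with an untreated log2 signal within 1 of Batf3 were Flt1, which encodes a VEGF receptor, at 4.21 and Socs1, a feedback inhibitor of cytokine signalling, at 4.37, on the 2 arrays.

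Batf, which acts in T and B cell differentiation, was printed in 10 spots per array. The untreated spots ranged from 323 to 367 with a mean of 339, and the IL-4 spots ranged from 549 to 621 with a mean of 600. The spots of the 2 arrays did not overlap, and Batf was 1.65-fold higher after IL-4, with a log2 difference of 0.73 (SD 0.057 over 10 pairs of spots). Spots of an array share 1 RNA sample, so this SD is a technical error. Batf2, a factor induced by interferon in macrophages, went from an intensity of 282 to 444. It was 1.47-fold higher, a log2 difference of 0.56 with a spot error of 0.074. The gap between Batf and Batf2, 0.17, was less than 2 times its spot error of 0.10, while Batf3 lay 3.50 above Batf.

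Jun, which encodes c-Jun, the classical partner of FOS proteins, went from an intensity of 10237 to 15567 with IL-4. Its log2 difference was 0.50, with a spot error of 0.045, or 1.42-fold higher. Junb, which can oppose c-Jun at some promoters, had intensities of 259 and 370 and a log2 difference of 0.41, with a spot error of 0.081. Jund, expressed in most resting cells, had intensities of 14075 and 15243, and its log2 difference of 0.02 was within the spot error of 0.045. Jun and Junb were higher on the IL-4 array and Jund was level after scaling, but the gap between Junb and Jund, 0.40, exceeded 2 times the spot error of 0.093 and not 2 times the software error of 0.29.

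Fos, the prototype immediate early gene, was printed in 10 spots per array. Of the untreated spots 9 were used, ranging from 873 to 1020 with a mean of 946, and 1 spot flagged as an outlier, at 650, was left out. The IL-4 spots ranged from 471 to 519 with a mean of 493. No untreated spot, the outlier included, was as low as the highest IL-4 spot. The log2 difference was -1.04 (SD 0.074 over 9 pairs of spots), which is the 241st lowest of the 17242 genes. The 2-fold cutoff lies within that SD, and the difference was -0.99 with the outlier spot kept, -0.94 without scaling and -0.75 with spike-in scaling. Fos was the lower on the IL-4 array under each of the 9 other settings, between -1.09 and -0.75.

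**Figure D2:**
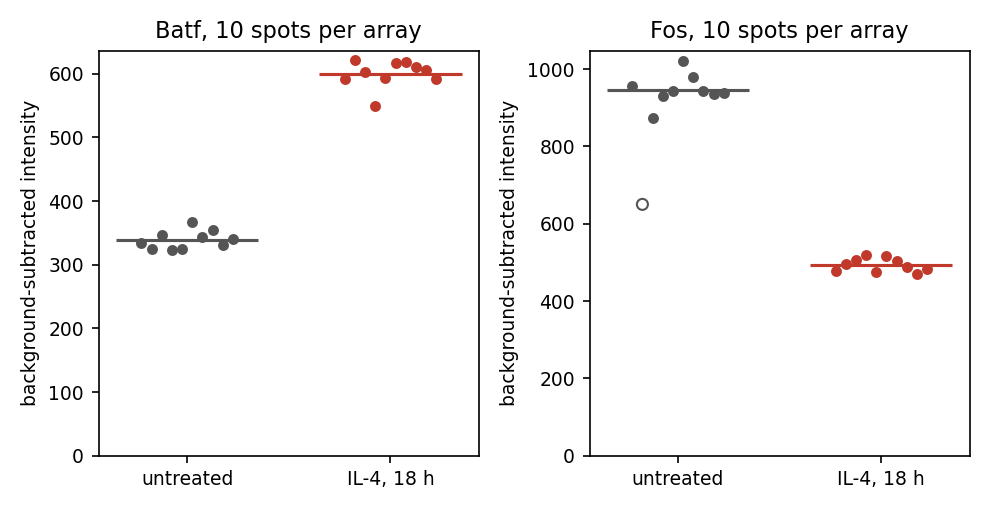
Background-subtracted intensity of the 10 spots of the Batf probe (left) and the Fos probe (right) on the untreated (grey) and IL-4 (red) array, with bars at the geometric mean and an open circle for the outlier spot that was left out. Batf spots are at 323 to 367 against 549 to 621, and the Fos spots in use are at 873 to 1020 against 471 to 519, so the arrays do not overlap for either probe.

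None of the other FOS factors reached 2-fold. Fosl1 (FRA1), which lacks the transactivation domain of c-Fos, had intensities of 865 and 858, a log2 difference of -0.11 with a spot error of 0.061. Fosb, another immediate early gene, was dim, with intensities of 73.3 and 67.3, and its log2 difference of -0.22 compares with a spot error of 0.19 and a median of -0.16 over 2443 gene probes of similar level. Fosl2 (FRA2) was read by 2 probes that went in opposite directions. The brighter probe had intensities of 4121 and 6352, a log2 difference of 0.52 with a spot error of 0.049. The dimmer probe went from 75.04 to 43.5 in intensity, a log2 difference of -0.89 with a spot error of 0.21, where 2249 gene probes of similar level had a median of -0.20 with the middle 80% of them between -0.81 and 0.37. Both probes carry the same RefSeq accession, so the direction of Fosl2 depends on the probe.

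**Figure D3:**
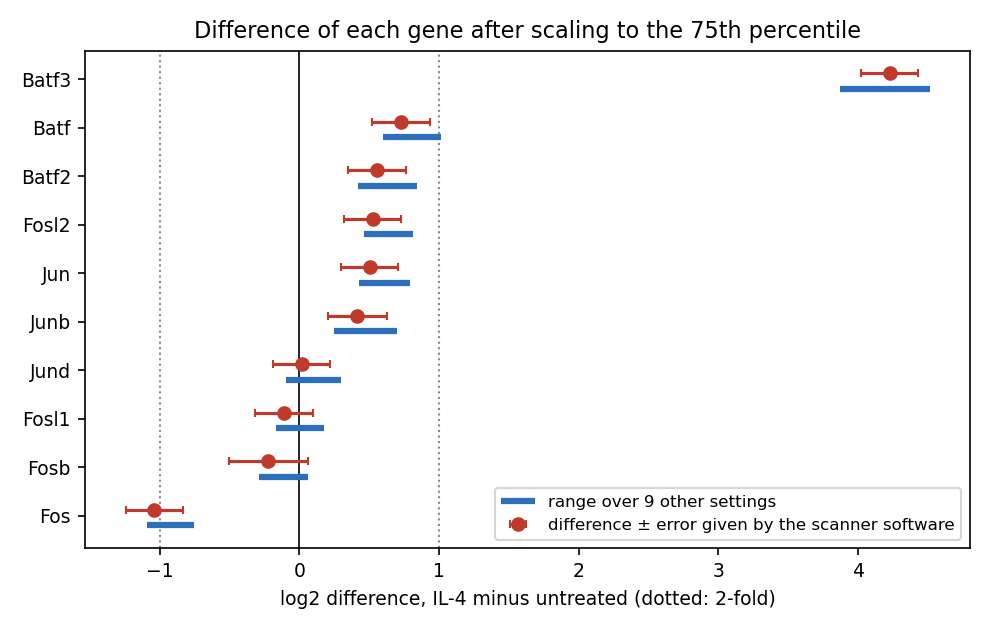
Log2 difference (IL-4 minus untreated) of each gene, in order, with the error given by the scanner software (red points and bars) and the range over 9 other settings (blue bars), dotted lines at 2-fold. Batf3 at 4.23 and Fos at -1.04 stand apart from the rest, and the ranges of Jund, Fosl1 and Fosb cross 0.

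In order of their log2 difference the genes ran Batf3, Batf, Batf2, Fosl2, Jun, Junb, Jund, Fosl1, Fosb and Fos. Gaps larger than 2 times the spot error separated Batf3 from Batf, Junb from Jund and Fosb from Fos, and the remaining 6 pairs of neighbours lay within that limit. By the wider software error the gaps at both ends held. On that error 6 of the 10 genes lay more than 2 errors from 0, namely Batf3, Fos, Batf, Batf2, Fosl2 and Jun, and 4 lay within it, namely Junb, Fosb, Fosl1 and Jund. The share of all genes beyond that limit was not computed, so nothing about the group is read from this count. The software error, too, does not cover the spread between cultures. The median log2 difference was 0.73 for the BATF factors, 0.41 for the JUN factors and -0.17 for the FOS factors. Beside these, it was -0.01 for all genes measured on both arrays. The FOS median turned to 0.05 with median scaling and 0.12 with spike-in scaling. It takes Fosl2 by its brighter probe, at 0.52, where the dimmer probe had -0.89. The sign was the same under all 9 other scalings, background steps and sources for 7 of the 10 genes, Fosl2 among them by its brighter probe. Jund, at 0.02, fell below 0 under 4 of them, to -0.09 at the lowest with quantile normalization. Fosl1 went to 0.10 with median scaling, and Fosl1 and Fosb went to 0.18 and 0.06 with spike-in scaling. The choice of probe is not one of the 9, and the sign of Fosl2 turned with it, to -0.18 as the median of both probes and -0.89 by the dimmer one.

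**Figure D4:**
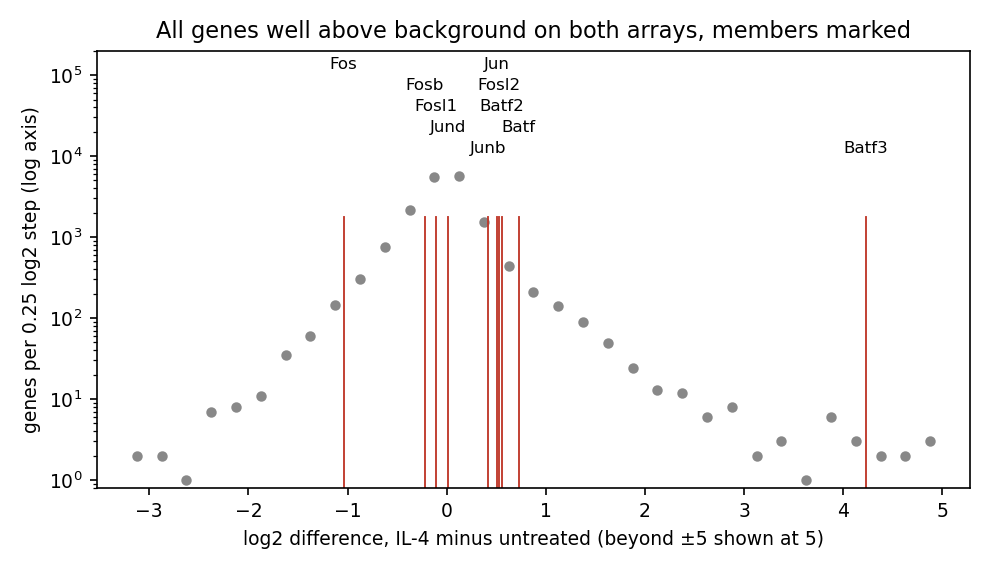
Number of genes (grey points, log axis, per step of 0.25 on the log2 scale) by log2 difference over the 17242 genes detected on both arrays, with red lines at the 10 named genes. Batf3 lies in the sparse right tail as the 8th highest gene, Fos lies on the left flank as the 241st lowest, and the rest lie within 1 log2 unit of 0.

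Irf4 and Irf8 encode the IRF partners of the BATF proteins. Without IL-4 the Irf4 signal of 35.4 was not well above background, and it had an intensity of 970 after IL-4. Set against that undetected signal, Irf4 was 25.6-fold higher, an approximate value and not a firm lower limit. Irf8 had intensities of 9805 and 9663 and a log2 difference of -0.12.

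Among the other bZIP factors 25 of 26 had a probe, all were well above background on both arrays, and 2 passed the 2-fold cutoff on the higher side and 0 on the lower side. The 2 were Atf3, a stress-induced partner of JUN proteins, from 6347 to 18466, 2.72-fold higher, and Nfil3, a repressor that acts in innate lymphoid and type 2 responses, from 3634 to 8917, 2.29-fold higher. Their median log2 difference was 0.04. Of the MAP kinases that act upstream of AP-1, 15 of 16 were well above background, with a median of -0.17. Mapk8 (JNK1) was the 1 at least 2-fold lower, at a log2 difference of -1.07 with a spot error of 0.21 from a dim probe, 82.5 against 42.1, and 1 of its other probes was on the higher side. Mapk8 passed 2-fold under 3 of the 9 other settings.

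Of 14 immediate early genes outside AP-1, 13 were well above background and their median was -0.07. Egr2, a zinc finger factor known to respond to IL-4 in macrophages, was 7.86-fold higher, from 1941 to 16338. No other one reached 2-fold in either direction under this scaling. The next in size were Ier3, a stress-response gene, at a log2 difference of 0.83, Myc, which encodes the growth regulator c-MYC, also at 0.83, and Nr4a1, a nuclear receptor, at -0.76. Ier3 and Myc each passed 2-fold under 2 of the 9 other settings. Of 16 genes known as AP-1 targets all were well above background, 2 passed 2-fold on the higher side and 0 on the lower, with a median of 0.16. These were Mmp13, which encodes a collagenase, from 455 to 1546, 3.17-fold higher, and Il6, an inflammatory cytokine, from 65.6 to 150, 2.14-fold higher with a spot error of 0.16 on the log2 scale. Il6 passed 2-fold under 8 of the 9 other settings, and its lowest log2 difference among them was 0.45. Of 6 genes that BATF and IRF4 are known to act on in T cells, 4 were detected on neither array, Prdm1 had intensities of 885 and 948, and Ctla4 was at least 1.81-fold lower against an IL-4 signal not well above background.

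**Figure D5:**
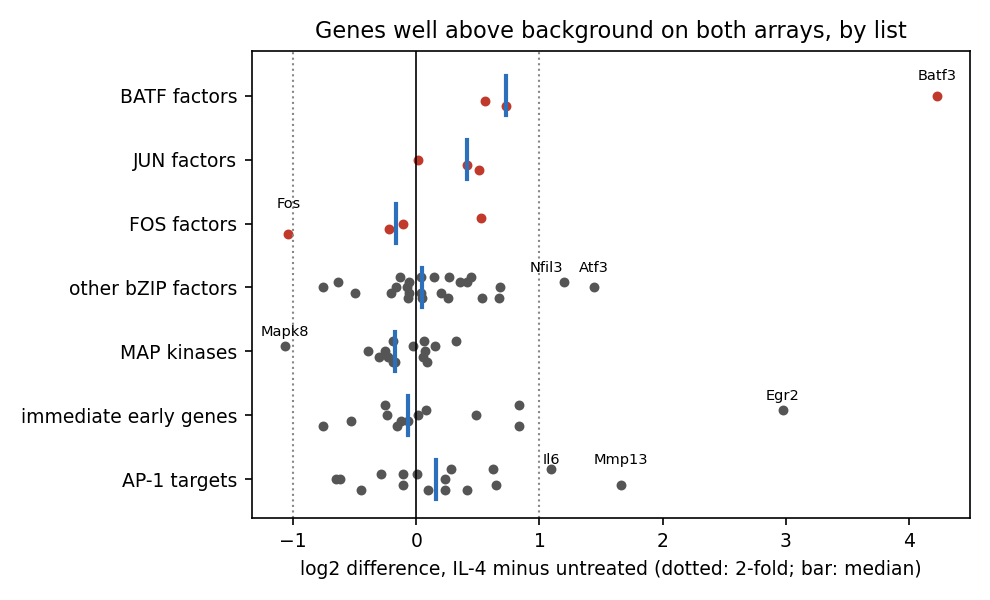
Log2 difference (IL-4 minus untreated) of every gene well above background on both arrays in the BATF, JUN and FOS groups (red) and in related lists (grey), with blue bars at each list's median and dotted lines at 2-fold. Genes beyond 2-fold are named: Batf3, Fos, Nfil3, Atf3, Mapk8, Egr2, Il6 and Mmp13.

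The macrophage label was checked on 6 of 7 markers with a probe. All 6 were well above background on both arrays, with summed intensities of 281647 and 267794, and 2 of them were at least 2-fold lower after IL-4. These were Fcgr1, which encodes an Fc receptor for IgG, from 2441 to 1118 and 2.34-fold lower, and Mertk, a receptor for the uptake of dying cells, from 2263 to 1102 and 2.20-fold lower. Itgam and Lyz2 had log2 differences of -0.71 and -0.70, Adgre1 (F4/80) 0.17 and Csf1r, the M-CSF receptor, 0.09 at intensities of 146026 and 166510. The median of the 6 was -0.71, beside -0.01 for all genes, and 4 of the 6 lay below 0 under each of the 9 other settings. That median rests on the brightest Itgam probe and on Lyz2. At 2-fold lower were 1 of the 6 with median scaling and 0 with spike-in scaling. The part of these marker differences in the values of the BATF and AP-1 genes was not tested. Of the dendritic cell markers, for which Batf3 is known, 7 of 8 had a probe and 5 of these, Flt3, Xcr1, Clec9a, Cd209a and Dpp4, were detected on neither array, whereas Zbtb46 and Ccr7 had intensities from 36.1 to 48.2 on both, with log2 differences of -0.52 and -0.09. The summed intensity of the 7 was 155 before and 150 after IL-4. None of the 4 B cell markers and 2 of the 4 T cell markers with a probe were well above background, Cd3e with a log2 difference of -0.31 and Cd4 with -0.0018. All 4 fibroblast markers and all 4 neutrophil markers with a probe were, with summed intensities of 90667 and 82727 and of 34677 and 34325, and their part in the differences above was not tested. The log2 differences furthest from 0 were 0.51 for Pdgfra and -0.34 for Col1a1 among the fibroblast markers, and 0.30 for Mpo and -0.23 for Elane among the neutrophil markers. Of 5 eosinophil and mast cell markers 3 were detected on 1 array or both. The sums of the 5, 963 and 948, were mostly Siglecf, at 772 and 817. Cpa3, a mast cell protease, went from 91.2 to a signal not well above background and was at least 3.51-fold lower.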

How the data were processed

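The values come from 2 single-colour arrays, 1 of untreated and 1 of IL-4-treated BMDMs, grouped by the sample labels. Per the file headers, the authors deposited the intensity of each spot from Feature Extraction 10.10.1.1, background-subtracted, corrected for trends across its own array and left without scaling between arrays, on a design annotated on mm9. The authors also deposited a table of log2 values whose centring is not stated, with column medians of 0.16 and 0.02. Its differences were within 0.01 of the scanner's, after a constant offset, for 39422 of 39424 probes.

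Here the log2 intensity was averaged over each probe's unflagged spots and centred on the array's 75th percentile. A gene was read from its probe with the highest mean signal. A probe well above background on 1 array only was set against the other array's detection floor (its dimmest detected probe), which gave a lower bound. Where the probe's own undetected signal was above that floor, as for Irf4, it was set against that signal. The fold is then approximate. A probe detected on neither array gave no fold. Genes were named through RefSeq accessions of GRCm38.p6, which matched 27223 of 39424 probes. Unmatched probes were kept under their own array identifier. Each such identifier counts as a gene in the totals, shares and ranks over all genes. No test between conditions is possible with 1 array each. Precision is limited by the number of arrays. The genes and lists were chosen with earlier results of these data known. By rule the named genes are the 10, list genes at 2-fold or, in a list with none, the 2 with the largest differences, and the 2 nearest Batf3. Other genes named, such as Irf8, Ier3, Myc, Nr4a1, Ctla4, Csf1r, Adgre1, Itgam, Lyz2, Siglecf and the undetected dendritic cell markers, were chosen after their values were seen. The serum response element known from Fos was added after the files were seen and was found in none of the 8 promoter windows and in 0.0639% of all. Only the stretch around each start was searched, so an element further upstream could not be found. Whether Fos holds this element outside its window was not tested. Protein sequences were not analysed here. Counting was tested on simulated data. Alternatives were other scalings, normexp, filters, cutoffs, probe rules and the authors' values. Python 3.11.15, numpy 2.4.6, pandas 2.3.3, matplotlib 3.10.9, R 4.3.3 and limma 3.58.1 were used.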

Additional observations from a re-analysis of the deposited data

How the results depend on the processing

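No paired analysis was possible because there is only 1 sample per group. For normexp, median pixel values took the place of mean values, which the files lack. The count of 1 gene of the 10 at least 2-fold higher was 2 with spike-in scaling, where Batf reached 1.01, and 5 at a cutoff of 0.5 on the log2 difference. The count of 1 at least 2-fold lower was 0 with median scaling, no scaling, spike-in scaling, normexp, outlier spots kept and a cutoff of 1.5. For Fos at these 5 settings of the values the log2 difference was -0.83, -0.94, -0.75, -0.95 and -0.99. Over all genes the median, -0.01, became 0.20 with median scaling and 0.27 with spike-in scaling, and the 10 genes shifted alike.

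Of all genes, 564 were at least 2-fold higher, and 954 with spike-in scaling, 297 with normexp, 1389 with no filter on dim probes, 363 on both arrays only, 1392 in the authors' processed values, 1467 at a cutoff of 0.5 and 228 at 1.5. The authors' values were also counted with no filter, so their counts compare with the unfiltered ones. At least 2-fold lower were 883, and 564 with median scaling, 532 with quantile normalization, 495 with spike-in scaling, 268 with normexp, 4075 with no filter, 270 on both arrays only, 4074 in the authors' processed values, 2689 at 0.5 and 302 at 1.5. Filters and cutoffs change counts by construction, and so do median and spike-in scaling, which add the same constant to every log2 difference. For quantile normalization and normexp the cause was not tested. For Fosl2 the median over its probes was -0.18. Of the values of the 10 genes under these settings 78 moved by less than the spot error, 31 moved up and 12 down by more. Many of the 78 could not move. The filters leave the values of these detected genes as they are, and the probe rules can alter only Fosl2. The authors' values are the same scanner data with another centring. Dim probes, Fosb and the second probe of Fosl2 among them, have the largest spot error.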

Other observations

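Batf3 and Atf3 lie close to each other on chromosome 1, with Fam71a between them and Nsl1 and Nenf as the next protein-coding genes outside. Atf3, 2.72-fold higher after IL-4, was the other gene of this stretch with a large difference. Nsl1 had a log2 difference of 0.11 and Nenf one of 0.05, and Fam71a was detected on neither array.

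Fos, Jdp2 and Batf follow each other on chromosome 12, between Tmed10 and Flvcr2. Along this stretch the log2 difference was 0.10 for Tmed10, -1.04 for Fos, -0.06 for Jdp2, which encodes a repressive partner of JUN proteins, and 0.73 for Batf. Flvcr2 was at least 1.69-fold lower, against an IL-4 signal not well above background. The order of genes was taken from RefSeq, and these stretches were chosen after the values were seen.

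Other bZIP factors with sizeable differences under 2-fold were Maf, which encodes c-MAF, at a log2 difference of -0.75, Bach1, a repressor that pairs with small MAF proteins, at 0.68, Ddit3, which encodes CHOP, at 0.67, Bach2, a repressor related to Bach1, at -0.63 from a dim probe (96.8 against 66.9) and Cebpb, a factor of M2 gene expression, at 0.54. These 5 were all that differed by more than 0.5 without reaching 2-fold. Their choice too was made after the values were seen.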
